A study of Bos taurus with 6 samples.

Results

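The locus examined here lies on chromosome 10 of the bovine genome (bosTau8), next to the genes BHMT and DMGDH. The window from 9600000 to 10600000 was chosen by a called peak, peak 128 of MAT2A-ChIP 1, which the study's gene list places upstream of both genes. All peaks of the 6 lists inside the window were taken as members. There were 12 such peaks among 11572 in all lists, and they fell into 4 of the 5619 merged regions that the overlapping peaks of the 6 lists formed. Because the same lists selected the window, its values are given as a description and no test was made on them.

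MAT2A is the catalytic subunit of the enzyme that makes S-adenosylmethionine, the methyl donor for DNA and histones, from methionine. BHMT (betaine-homocysteine methyltransferase) works upstream of that step and renews methionine by moving a methyl group from betaine to homocysteine, with dimethylglycine as the second product. DMGDH (dimethylglycine dehydrogenase) is the mitochondrial enzyme that oxidizes this dimethylglycine to sarcosine. The genes thus encode consecutive steps of betaine use, of which BHMT supplies the substrate of MAT2A and DMGDH disposes of the by-product.

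In the RefSeq gene table of a later assembly (ARS-UCD2.0), used for names and order only, the protein-coding genes ran ARSB, DMGDH, BHMT2, BHMT and JMY. BHMT2 encodes a related methyltransferase of homocysteine. Beyond ARSB, a lysosomal sulfatase, came LHFPL2, SCAMP1, AP3B1 and LOC512323. Beyond JMY, which encodes an actin-nucleating factor, came HOMER1, TENT2, CMYA5 and THBS4. Of 29 genes listed for one-carbon metabolism, all 29 were found in the table, and only DMGDH, BHMT2 and BHMT had another gene of the list as their immediate neighbour. MTHFD1, an enzyme of the folate cycle, was the fourth gene of the list on chromosome 10. An annotation or sequence of bosTau8 was not used here, so exon, intron and base composition of the peaks are not given, and no peak was assigned to the other genes of the list.

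The libraries came from Bos taurus blastocysts produced by fertilization and culture in vitro and collected on day 8, at 192 h after insemination. Pools of 669 (replicate 1) and 677 blastocysts (replicate 2) were crosslinked and sheared, and the chromatin of each pool was divided among 3 libraries. These were Input, with no antibody, MAT2A-ChIP, with 5 µg of a mouse monoclonal antibody (ab86424), and IgG control, with 5 µg of an IgG2B isotype control (MAB004). Each library type therefore had n = 2, and a library sums the signal of all cells of all embryos in its pool. The lists held 1788 to 2094 peaks. They carry no read counts, so the number of reads behind a peak is unknown, and a region with no listed peak may still hold reads below the calling threshold. The score of a peak in MACS is its p-value on a log10 scale, multiplied by -10. No listed score was under 50, the value that corresponds to the default threshold of 1e-05. Scores rise with depth, so places were read only within a list, and a common minimum score, where used, removes a different share of each list.

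The peaks near BHMT and DMGDH were concentrated in a stretch of 1711 bp that held 11 of the 12 peaks. It consisted of 3 regions, here called the anchor region, the shared region and the Input-only region after the libraries in which they were listed. The anchor region was listed in both MAT2A-ChIP libraries and in IgG control 1. The shared region was listed in all 6 libraries, and the Input-only region in Input 1 and Input 2. The remaining peak, the distal peak, ended 179827 bp before the anchor region and was listed in MAT2A-ChIP 1 only. By library, the window held 2 peaks in Input 1, 2 in Input 2, 3 in MAT2A-ChIP 1, 2 in MAT2A-ChIP 2, 2 in IgG control 1 and 1 in IgG control 2.

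**Figure D1:**
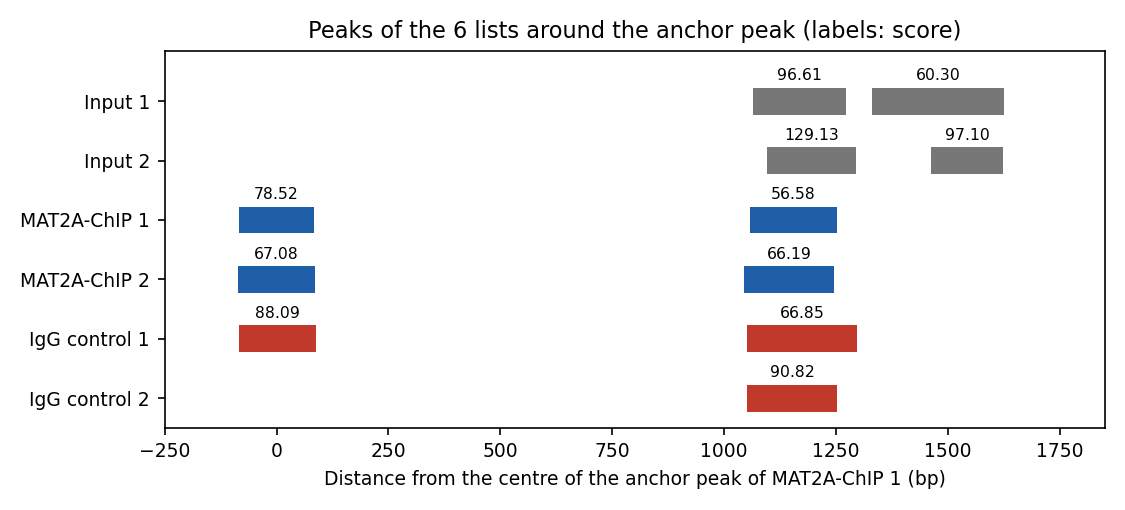
Peaks of the 6 lists within the 1711 bp stretch, drawn to scale; the x axis is the distance in bp from the centre of the anchor peak of MAT2A-ChIP 1, each row is 1 library, bars span the listed peaks and labels give their scores. The anchor region is occupied in MAT2A-ChIP 1, MAT2A-ChIP 2 and IgG control 1, the shared region in all 6 rows and the Input-only region in the 2 Input rows.

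The anchor region ran from 10105974 to 10106149, a width of 176 bp. In MAT2A-ChIP 1 its peak, peak 128, spanned 10105977 to 10106144 (168 bp) with a score of 78.52. This placed it 796th of 2094 peaks, above 62.0% of its list. In MAT2A-ChIP 2 the peak spanned 10105974 to 10106146 (173 bp) with a score of 67.08, 897th of 1788 and above 49.8% of the list. In IgG control 1 it spanned 10105978 to 10106149 (172 bp) with a score of 88.09, 640th of 1935 and above 66.9% of the list. By score over the whole list, the single IgG control peak stood higher than either MAT2A-ChIP peak. This order was kept among autosomal peaks, with IgG control 1 above 67.9%, MAT2A-ChIP 1 above 63.4% and MAT2A-ChIP 2 above 51.0%. It turned among the peaks of chromosome 10 alone, which were few. There the IgG control 1 peak stood above 65.2% of 46 peaks, the MAT2A-ChIP 1 peak above 74.2% of 62 and the MAT2A-ChIP 2 peak above 68.5% of 54. No peak was listed at this position in IgG control 2, Input 1 or Input 2. All 3 peaks were narrow for their lists, since only 8.0%, 10.8% and 7.2% of the peaks of MAT2A-ChIP 1, MAT2A-ChIP 2 and IgG control 1, respectively, were narrower. Their starts lay within 4 bp and their ends within 5 bp of each other, so that 167 bp were common to all 3.

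The shared region began 955 bp after the anchor region and ran from 10107105 to 10107356. Its peaks were 194 to 245 bp wide, and 149 bp, from 10107157 to 10107305, were common to all 6. The Input peaks had scores of 96.61 in replicate 1 and 129.13 in replicate 2, above 49.5% and 62.8% of their lists. The MAT2A-ChIP peaks had scores of 56.58 and 66.19, above 33.6% and 49.0%. The IgG control peaks had scores of 66.85 and 90.82, above 51.9% and 63.3%. Within each library type the replicate 2 peak stood higher in its list than the replicate 1 peak. The MAT2A-ChIP peaks stood lowest in both replicates and overlapped neither the Input nor the IgG control places, which overlapped each other. The nearest places of MAT2A-ChIP and another type, 49.0% and 49.5%, were close, and the same order was found in 6.33% of the regions listed in all 6 libraries (38 of 600, with the highest score taken where a library had several peaks). With n = 2 it was not tested. In MAT2A-ChIP 1 the anchor peak stood above the peak of the shared region, while in MAT2A-ChIP 2 their places differed by less than 1 percentage point. IgG control 1 resembled MAT2A-ChIP 1 in this order, with the anchor peak above the peak of the shared region.

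The Input-only region ran from 10107392 to 10107684 and followed the shared region after 35 bp. Its peak in Input 1 was 293 bp wide with a score of 60.30, above 20.1% of the list. The peak in Input 2 was 160 bp wide with a score of 97.10, above 49.7%. The peaks ended within 1 bp of each other, but their starts differed by 132 bp. No antibody library, with either MAT2A antibody or IgG, had a listed peak there. In Input 1 the gap between the shared peak and this peak was 60 bp and in Input 2 it was 168 bp.

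The distal peak, peak 127 of MAT2A-ChIP 1, ran from 9925883 to 9926146 (264 bp). Its score of 51.22 was close to the calling threshold and above 10.7% of its list. It was therefore the weakest of the 12 peaks and the only one of the 4 regions seen in a single library. The distal peak lies on the far side of the anchor region from the shared and Input-only regions.

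**Figure D2:**
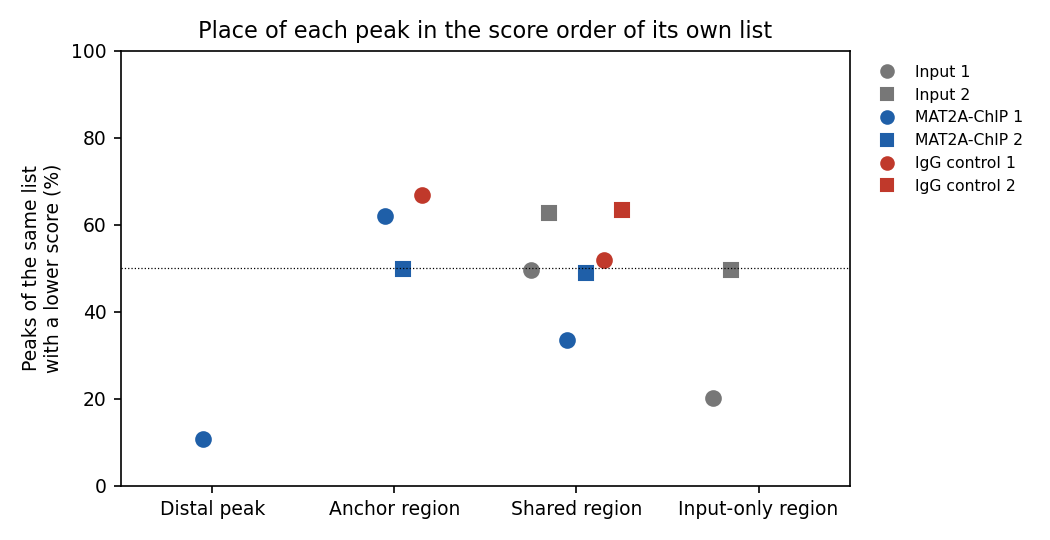
Place of the 12 peaks in the score order of their own lists; the y axis is the percentage of peaks of the same list with a lower score, columns are the 4 regions, colours the library types, circles replicate 1 and squares replicate 2, and the dotted line is the middle of a list. All 12 peaks lie between 10.7% and 66.9%, so none is among the strongest of its list.

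The surroundings were then read for peaks just outside the window. The nearest was a peak of IgG control 2 from 10650528 to 10650779 with a score of 51.46, 50.5 kb past the end of the window. On the other side the nearest was a peak of IgG control 1 from 8876761 to 8877007, 723.0 kb before its start, with a score of 55.79. All other first peaks beyond the window, on either side and in every library, lay at least 1973.4 kb from it. Within 500 kb of the anchor peak's centre there were 12 peaks in all 6 lists, against a median of 15 (quartiles 3 and 130) around the 2094 peaks of MAT2A-ChIP 1 and a median of 4 around its 62 peaks on chromosome 10. The count near BHMT and DMGDH was therefore within the quartiles of the whole list and above the median of its chromosome. Chromosome 10 as a whole held 46 (IgG control 1) to 62 peaks (MAT2A-ChIP 1) per list, or 2.32% to 3.02% of each list. A second peak of the same list within 2 kb, as the anchor peak has, was found for 28.8% of the MAT2A-ChIP 1 peaks (603 of 2094).

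The comparison of MAT2A-ChIP with its controls asked whether a peak was free of control peaks. Against Input this does not separate the MAT2A antibody from IgG, since IgG control 1 peaks also passed against Input (27 of 1935). The study removed peaks that met a peak of Input or of IgG control and kept those common to both replicates, with either control sufficient. The filter was rebuilt here with an overlap of 1 bp or more, a distance not given in the sources used here, and was run against each control separately. It keeps a replicate 1 peak that is free of control peaks of its own replicate and that meets a replicate 2 peak of the same type which is free of control peaks there. Of the 3 window peaks of MAT2A-ChIP 1, 2 met a peak of MAT2A-ChIP 2, the anchor and the shared peak. In the whole list this share was 41.4% (867 of 2094). Against Input, 1 of the 3 passed, the anchor peak, where 1.86% of the list passed (39 of 2094). Against IgG control, 0 of the 3 passed, where 2.82% of the list did (59 of 2094). Against either control, the same 1 peak passed, where 3.63% of the list did (76 of 2094). The window was selected on a peak that passes, so these counts carry no weight beyond their description.

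The anchor peak failed against IgG control because of 1 library. The peak of IgG control 1 covered 167 of its 168 bp, whereas IgG control 2 had no peak at this position. Within replicate 2 alone, the anchor peak was free of peaks of both controls, as were 45.8% of MAT2A-ChIP 2 peaks against Input (819 of 1788) and 52.3% against IgG control (936 of 1788), each control taken separately. Presence in 2 of 2 MAT2A-ChIP libraries against 1 of 2 IgG control libraries and 0 of 2 Input libraries cannot be separated statistically at this size, since even 2 of 2 against 0 of 2 gives p = 0.333 in a two-sided Fisher exact test. Of the 17 peaks in the whole list that passed against Input and not against IgG control, 5 met an IgG control peak in replicate 1 only, as the anchor did, 7 in replicate 2 only and 5 in both.

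Among the 39 peaks that passed against Input, the anchor peak was 16th by score in MAT2A-ChIP 1 (median of the 39, 71.32, range 50.31 to 203.53). By the score of the overlapping MAT2A-ChIP 2 peak it was 20th, at the median of 67.08. It was the 10th narrowest, with 168 bp against a median of 256 bp. The peak that stands for BHMT and DMGDH thus lay in the middle of its class by score. A further region listed in all 6 libraries lay within 2 kb of 5 of the 39 peaks (12.8%), the anchor among them, of 182 of the 867 replicated MAT2A-ChIP 1 peaks from which the 39 were drawn (21.0%), and of 253 of all 2094 (12.1%).

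The same filter was run in libraries without the MAT2A antibody. With IgG control as the target and Input as the control, 0 of the 2 window peaks of IgG control 1 passed, against 1.40% of that list (27 of 1935). The anchor peak was not listed in IgG control 2, and the shared peak met an Input peak in both replicates. With MAT2A-ChIP as the control in place of Input, 0 of the 2 passed, against 49 of 1935 peaks of that list. The reverse, MAT2A-ChIP against IgG control, passed 59 of 2094, and the difference was not tested. With Input as the target and MAT2A-ChIP as the control, 1 of the 2 window peaks of Input 1 passed, that of the Input-only region, against 11.4% of the list (231 of 2023). The same Input peak also passed against IgG control, as did 13.5% of the list (274 of 2023). The stretch therefore held a peak that passed in each direction, 1 of MAT2A-ChIP against Input and 1 of Input against MAT2A-ChIP, with centres 1477.5 bp apart in replicate 1.

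The library patterns of the 4 regions were counted over all 5619 merged regions. The pattern of the anchor region (both MAT2A-ChIP libraries, IgG control 1 and no other) occurred 5 times, in 0.0890% of regions, and the other 4 lay on chromosomes 6, 23, 27 and X. The counterpart with IgG control 2 in place of IgG control 1 occurred 7 times. The patterns of both IgG control libraries with MAT2A-ChIP 1 or with MAT2A-ChIP 2 alone occurred 3 and 8 times, and all 4 antibody libraries without Input 3 times. Regions in both MAT2A-ChIP libraries and no other numbered 21, and those in both IgG control libraries and no other 12. The differences among these counts were not tested. The pattern of the shared region made up 10.7% of regions (600), that of the Input-only region 2.40% (135) and that of the distal peak 15.6% (874).

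**Figure D3:**
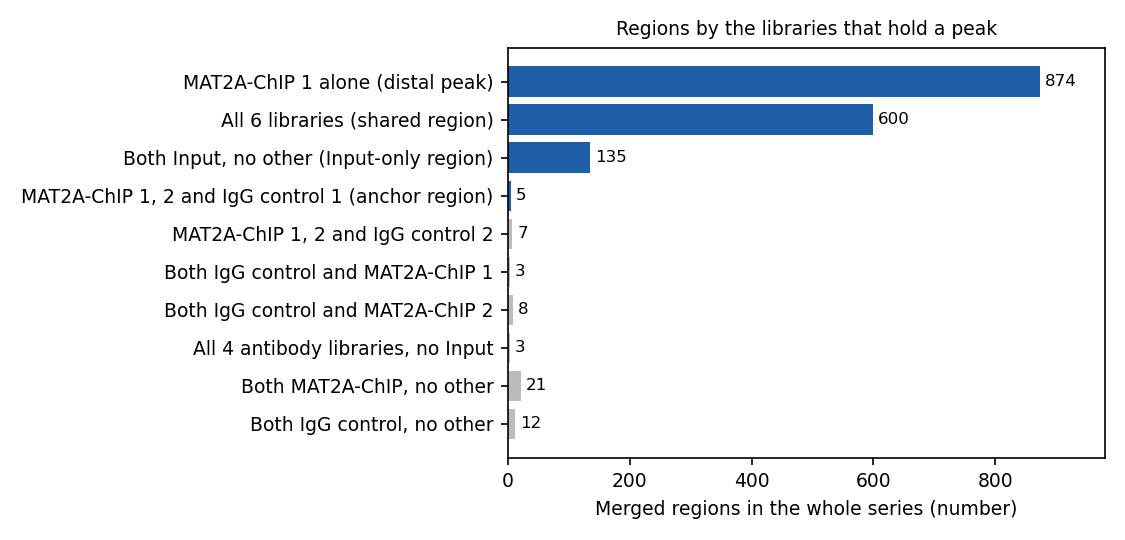
Number of merged regions in the whole series for each pattern of libraries; bars start at 0, blue bars are the 4 patterns found near BHMT and DMGDH and grey bars are other patterns of antibody libraries without Input. The pattern of the anchor region has 5 regions, against 600 for the shared region, 135 for the Input-only region and 874 for the distal peak.

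Set beside regions of the same pattern, the peaks near BHMT and DMGDH had low scores in the shared region and mixed ones elsewhere. The 4 other regions with the anchor pattern had scores of 69.12 to 184.62 in MAT2A-ChIP 1, and the anchor, at 78.52, was above 1 of them. In IgG control 1 its 88.09 was above 3 of the 4. In the shared region, the MAT2A-ChIP 1 peak had a lower score than all but 16 of the 600 regions listed in all 6 libraries (median 162.45). For the other libraries the share of the 600 regions with a lower score ran from 6.8% (Input 1 and IgG control 1) to 19.2% (Input 2). Against the 135 Input-only regions, the score of 60.30 in Input 1 was below the median of 80.09 and that of 97.10 in Input 2 above the median of 78.85. The distal peak was below the median of 54.00 of its pattern.

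The libraries listed at each region depended on the minimum score. A minimum of 70 removed 31.6% and 30.4% of all peaks in Input 1 and 2, 54.5% and 52.0% in MAT2A-ChIP 1 and 2, and 55.6% and 49.4% in IgG control 1 and 2, so losses from antibody libraries were also more frequent over the whole lists. With a minimum of 70 in every list, the anchor region remained in MAT2A-ChIP 1 and IgG control 1 and was lost from MAT2A-ChIP 2, so it no longer passed the filter against Input. The shared region then remained in Input 1, Input 2 and IgG control 2 and was lost from both MAT2A-ChIP libraries and IgG control 1. The Input-only region remained in Input 2. MAT2A-ChIP 2 thus had 0 peaks in the window at this minimum. With a minimum of 100, the single peak left near BHMT and DMGDH was that of Input 2 in the shared region.

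**Figure D4:**
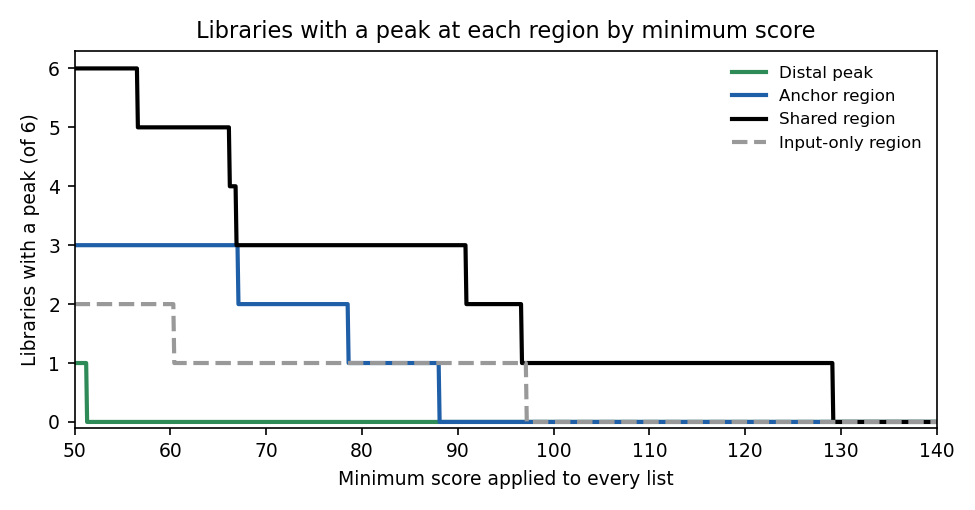
Number of libraries with a peak at each of the 4 regions (y axis, of 6) as the minimum score applied to every list rises (x axis, from the calling threshold of 50 upwards). The anchor region falls from 3 libraries to 2 above 67.08 and to 0 above 88.09, and the shared region from 6 to 3 above 66.85 and to 0 above 129.13.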

How the data were processed

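Adapters were removed by the authors and single reads were aligned to bosTau8 without scaffolds with Bowtie 1.1.2. Peaks were called in each library with MACS at its default settings; a control sample for the calling is not given in the sources used here. The deposited lists give peak positions and the MACS score of each peak, with no read counts. Starts were converted to count from 1.

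Members and gene lists were chosen with earlier results of these data known. All 12 peaks of the window were named, since the rule was to give every peak if there were 20 or fewer. Overlap of at least 1 bp, chosen here, defined shared peaks, and overlapping peaks were merged into regions. The replicate numbers mark a shared pool, so each library was filtered against controls of its own number. Libraries of different type shared 44.5% to 53.9% of peaks with the same number and 44.3% to 52.0% with different numbers. Libraries of the same type shared 67.6% (Input), 44.4% (MAT2A-ChIP) and 45.1% (IgG control). A MAT2A-ChIP and an IgG control library shared 44.3% to 46.2%, and the share between the 2 MAT2A-ChIP lists lay within this range. Shares count whole lists and are printed without an interval; the 95% Wilson interval of a share served only to judge whether an alternative moved it. Library read totals are stated by the study and were not used here, and the number of reads behind each peak is unknown. Alternatives were other overlap rules, minimum scores of 70 and 100, equal list lengths, other windows, crossed or pooled controls and libraries left out. Computation was in Python 3.11.15 with scipy 1.17.1 and numpy 2.4.6. Overlaps were checked against those of bedtools 2.31.1 and tested on simulated lists.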

Additional observations from a re-analysis of the deposited data

How the results depend on the processing

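The anchor peak passed the filter against Input under every overlap rule tried and with no replicate block, where crossed or pooled controls also gave 1 window peak. It was lost with a minimum score of 70 or 100 (0 window peaks each) and, in alternatives chosen after seeing the data, with control peaks within 1 kb or 2 kb also removing a peak (0 each), since the shared region lies within that distance. Each replicate alone gave 1 to 2 window peaks against Input, 1 to 1 against IgG control (the distal peak in replicate 1, the anchor peak in replicate 2) and, for IgG control against Input, 0 to 1. In the whole list, the 39 peaks against Input became 83 with 50% of both peaks overlapping, 24 and 11 with minimum scores of 70 and 100, and 25 with 2 kb. The 59 against IgG control became 30, 17, 39 (1 kb) and 34 (2 kb). The 27 for IgG control against Input became 63, 18 and 8 with 50% of both peaks and minimum scores of 70 and 100. With 1 replicate, and so no match required, the 39, 59 and 27 became 819 to 1014, 936 to 1198 and 867 to 932. The mean of 2 peaks per library fell to 1 and 0.167 with minimum scores of 70 and 100, and with 100 there was 1 region and 0 libraries at the anchor. The anchor peak's place in MAT2A-ChIP 1, MAT2A-ChIP 2 and IgG control 1 was 63.4%, 51.0% and 67.9% among autosomal peaks. It was 74.2%, 68.5% and 65.2% among chromosome 10 peaks, 8.0%, 10.8% and 7.2% by width and 80.5%, 72.3% and 83.9% by score per bp. IgG control 1 was thus highest of the 3 among autosomal peaks and by score per bp, and lowest among chromosome 10 peaks and by width. Fewer peaks than the 12 around the anchor were found around 45.2% of MAT2A-ChIP 1 peaks, and around 48.8% with a window of 500 kb. With 2 Mb the anchor had 13 peaks around it, and 40.4% had fewer. Of 112 alternative values, 74 stayed within 1.5 times the count, or the 95% Wilson interval of the share, reported above. Many of these counts were small, and a count that stayed at 0 was taken as unchanged. So was the fall from 3 libraries to 2 at the anchor with a minimum score of 70, where the filter against Input was failed. The tally is therefore a weak measure of stability. Without reads per peak, an absent peak cannot be read as absent signal.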

Other observations

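The ends of the anchor peaks coincided closely between libraries. MAT2A-ChIP 1 and MAT2A-ChIP 2 differed by 3 bp at the start and 2 bp at the end, where 841 peak pairs matched 1 to 1 had median differences of 19 bp and 23 bp, and 24 of these pairs (2.85%) were as close at both ends. MAT2A-ChIP 1 and IgG control 1 differed by 1 bp and 5 bp, and 19 of 861 pairs (2.21%) were as close. The pairs were of all widths and were not matched to the narrow anchor peaks. Those were 168 to 173 bp wide, against medians of 276.5 to 287 bp in the 3 lists. In the shared region, the starts of the 6 peaks spread over 52 bp and the ends over 51 bp, against medians of 53 bp and 72 bp over the 441 regions with exactly 1 peak in each library. These values were noticed in the data and were not tested.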
